A study of Mus musculus with 9 samples.

Results

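The genes described here are the myostatin and activin axis together with Mss51: the ligands Mstn, Gdf11, Inhba and Inhbb, the type II receptors Acvr2a and Acvr2b, the ligand traps Fst and Fstl3, and Mss51, 9 genes of the 55487 in the count table. They were chosen from a written list of symbols, matched to the table by gene identifier. Mss51 was picked for its rise on unloading in these same libraries, so its values are given as a description and without a test in every comparison, since each of them shares the Unloading or the Control libraries with that choice. Expression was measured by sequencing polyadenylated RNA of whole gastrocnemius, a calf muscle, from wild-type C57BL/6 mice (substrain C57BL/6J) that the labels call male. The 4 Control mice moved in normal cages, the 2 Unloading mice spent 10 days in hindlimb unloading, in which the hind legs bear no weight, and the 3 Reloading mice were put back into normal cages after unloading and sampled 1 day later. No group carried a transgene or a deletion, and the age of the mice is not given in the sources used here. The labels and the study's methods, which speak of females here, disagree on sex.

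Myostatin (Mstn) is a secreted protein of the TGF-beta family that is made by skeletal muscle fibres and restrains muscle growth. It and its close relative Gdf11 share with the activins, which are dimers of the Inhba and Inhbb subunits, the type II receptors Acvr2a and Acvr2b. These receptors act with the type I receptors Acvr1b, Tgfbr1 and Acvr1c to phosphorylate Smad2 and Smad3, which enter the nucleus with Smad4. Follistatin (Fst) and the follistatin-like protein Fstl3 bind the ligands outside the cell and keep them from the receptors. Mss51 encodes a mitochondrial protein of skeletal muscle whose expression is known to respond to myostatin.

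Across the groups, 3 members of the axis shared one shape. Mstn, Acvr2a and Acvr2b had their highest mean in Unloading and their lowest in Reloading, and each was lower in Reloading than in either of the other groups. The receptors Acvr2a and Acvr2b were also higher in Unloading than in Control, while the difference of Mstn did not pass the test there. Inhba and Fstl3 were near the detection limit in Control and Unloading and had their highest values in Reloading. No comparison passed the test for Gdf11, Fst or Inhbb. Mss51, picked for its rise, had a mean 5.20-fold higher in Unloading than in Control.

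The upstream sequences of Mstn, Mss51 and Acvr2a are shown because these are the ligand, the responsive gene and the receptor with the widest shifts among the well-counted members. Each line holds the 250 bases before the RefSeq start of the gene in build GRCm38.p6, written 5′ to 3′ along the gene's own strand. Mstn lies on the plus strand at chr1:53061390-53061639, Mss51 on the minus strand at chr14:20496902-20497151 and Acvr2a on the plus strand at chr2:48813859-48814108. Capitals mark matches, on either strand, to the Smad element GTCTAGAC, a palindrome, to the longer Smad box CAGACA, to the TATA box TATAAA and to the CCAAT box.
Mstn: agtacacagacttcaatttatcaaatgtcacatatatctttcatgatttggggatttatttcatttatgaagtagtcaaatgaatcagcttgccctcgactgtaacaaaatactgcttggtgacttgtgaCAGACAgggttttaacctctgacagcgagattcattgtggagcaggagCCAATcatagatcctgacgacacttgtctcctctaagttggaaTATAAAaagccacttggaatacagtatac
Mss51: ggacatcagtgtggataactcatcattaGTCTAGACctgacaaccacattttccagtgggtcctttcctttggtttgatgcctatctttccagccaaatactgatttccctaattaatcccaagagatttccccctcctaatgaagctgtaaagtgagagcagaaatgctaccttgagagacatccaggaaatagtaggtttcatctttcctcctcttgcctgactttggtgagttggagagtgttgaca
Acvr2a: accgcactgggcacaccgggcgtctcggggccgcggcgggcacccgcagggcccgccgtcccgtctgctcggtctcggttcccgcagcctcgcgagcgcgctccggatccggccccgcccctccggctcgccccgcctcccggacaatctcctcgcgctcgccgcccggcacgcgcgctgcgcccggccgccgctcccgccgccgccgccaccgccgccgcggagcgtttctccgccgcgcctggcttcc

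The 3 windows differed in composition and in what they matched. The Mstn window was 38.4% G and C and held a TATA box 29 bases before the start, a CCAAT box 72 bases before it and a Smad box 120 bases before it. The Mss51 window was 43.2% G and C and held the palindrome GTCTAGAC 222 bases before the start, with no match to the other letters searched. The Acvr2a window was 82.0% G and C and held none of them. Of 32851 RefSeq windows of the same length, 0.167% held GTCTAGAC, 17.1% CAGACA, 12.4% TATAAA and 33.8% CCAAT, and the median G and C content was 52.4%. A match describes letters and not a bound site. A window was found for 8 of the 9 members, all but Fst.

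The libraries held between 9252443 and 19612101 read pairs in genes. Control 2 and Reloading 1 held skin transcripts, with 233 and 116 CPM summed over 5 skin markers against 2.17 to 4.03 CPM in the other 7 libraries. CPM is the count per 1000000 read pairs with libraries scaled by TMM (trimmed mean of M-values), so that 1 read pair equals 0.0546 to 0.113 CPM. Markers of skeletal muscle fibres, 10 genes such as Ckm and Actn3, were abundant and summed to between 113600 and 173200 CPM in every library. That sum was 158800 to 173200 CPM in Control, 163100 to 168800 in Unloading and 113600 to 126800 in Reloading, where 7 of the 10 markers were lower than in Unloading and 0 higher, with a median log2 fold change of -0.60. Macrophage, endothelium, smooth muscle and Schwann cell markers moved the opposite way, as given with the genes that rose. In whole muscle, fewer cells of a type and less RNA per cell cannot be told apart.

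**Figure D1:**
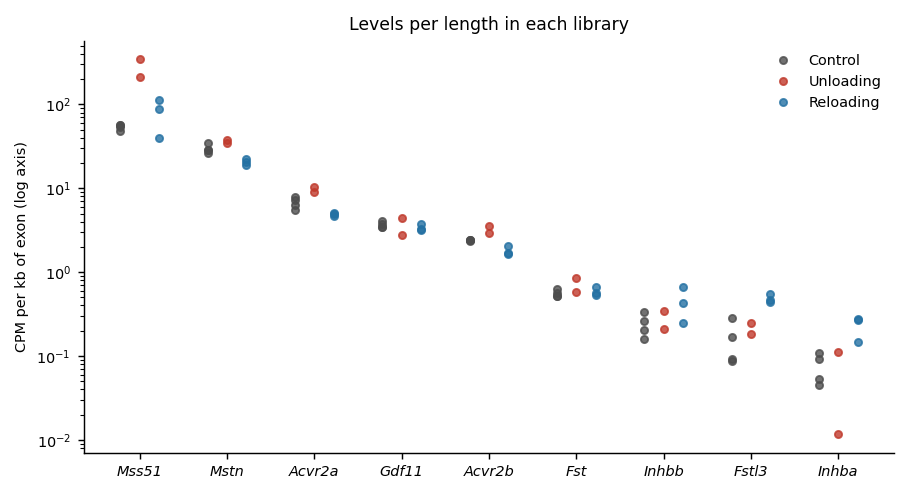
CPM per kb of exon length (log axis) for the 9 genes, 1 point per library (4 Control, 2 Unloading, 3 Reloading), ordered by the Control mean. Mss51 leads in Control with a mean of 53.8 and Inhba is last with 0.0740, and in Unloading the 2 Mss51 points sit at 215 and 344.

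Per length of exon, the members covered a wide range of levels in Control muscle. Mss51 had the highest level with 53.8 ± 3.92 CPM per kb (SD, n = 4), followed by Mstn with 29.6 ± 3.70. The receptor Acvr2a came next with 6.74 ± 1.08 CPM per kb, then Gdf11 with 3.70 ± 0.289 and Acvr2b with 2.41 ± 0.0458. The traps and activin subunits were the least abundant, with Fst at 0.558 ± 0.0531, Inhbb at 0.239 ± 0.0749, Fstl3 at 0.158 ± 0.0903 and Inhba at 0.0740 ± 0.0300 CPM per kb. Neighbours in this order were separate in all 4 Control libraries, except Inhbb and Fstl3 and also Fstl3 and Inhba, whose ranges overlapped. The upper part of the order, from Mss51 to Acvr2b, kept the same sequence of means in Unloading and Reloading, although in Unloading the ranges of Gdf11 and Acvr2b overlapped. In Reloading the lower part closed up, with Fst at 0.589 ± 0.0695, Fstl3 at 0.482 ± 0.0522, Inhbb at 0.446 ± 0.208 and Inhba at 0.231 ± 0.0748 CPM per kb (SD, n = 3). The place of Fstl3 is uncertain in every group, since 47.3% of its exon bases are shared with Prss57 on the opposite strand.

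Each comparison was tested with edgeR's quasi-likelihood test across 14851 genes, and a gene was called at an adjusted p under 0.05. Inhba and Fstl3 entered it only because their Reloading libraries passed the low-count filter, so they had to differ from Reloading to the other groups and are described there without a test, as Mss51 is. Of the 6 remaining members, 2 were called higher and 0 lower in Unloading than in Control, where 4.40% of all tested genes were called higher and 5.50% lower. In Reloading compared with Unloading 0 of the 6 were higher and 3 lower, against 18.5% and 19.0% of all genes. In Reloading compared with Control the count was again 0 higher and 3 lower, against 22.1% and 21.3%. The CPM of the groups did not overlap for 2 of the 6 members in Unloading and Control, for 3 in Reloading and Unloading and for 3 in Reloading and Control, beside 33.0%, 60.0% and 46.9% of all tested genes. The 2 higher members of both Reloading comparisons, Inhba and Fstl3, entered the test only because their Reloading libraries passed the low-count filter, so they had to differ and are described, not counted as support. Without Control 2 and Reloading 1, 1 of the 6 was called higher in Unloading than in Control, and 3 and 2 were called lower in the Reloading comparisons. The shares of all genes called were not counted without these 2 libraries. The comparisons share libraries and are not independent of each other.

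**Figure D2:**
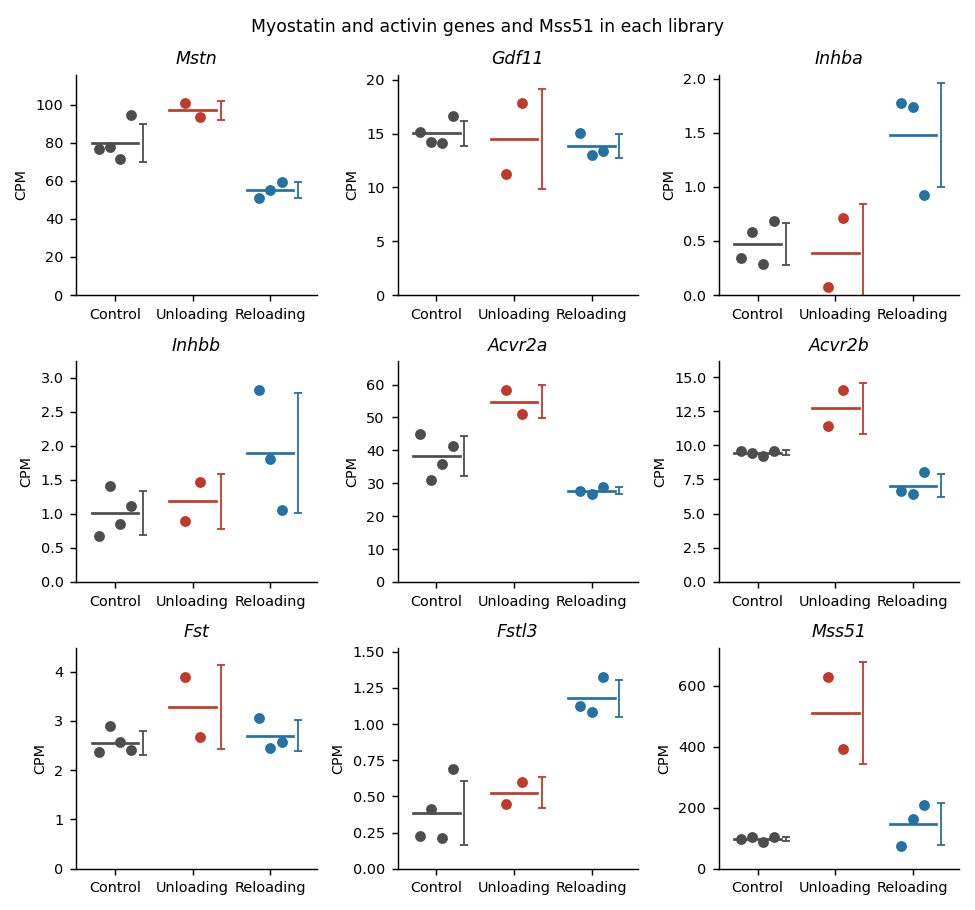
CPM of each gene in each library (linear axes from 0, 1 point per library), with the group mean as a horizontal line and the SD as a bar beside it, cut off at 0 for Inhba in Unloading. Mstn, Acvr2a and Acvr2b have all Reloading points below all other points, and Mss51 has both Unloading points, 628 and 392, above all others.

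Mstn (ENSMUSG00000026100, GRCm38 chromosome 1, 53061640 to 53068079, plus strand) was measured at 76.7, 77.8, 71.5 and 94.5 CPM in Control, 101 and 93.7 CPM in Unloading and 51.3, 55.0 and 59.7 CPM in Reloading. Every Reloading library was lower than every other library, and Control 4 lay between the Unloading libraries while the other Control libraries lay below both. From Unloading to Reloading Mstn fell by 0.81 ± 0.11 on the log2 scale (SE), a 1.76-fold difference (adjusted p = 3.63e-05, edgeR). Compared with Control it was lower in Reloading by a log2 fold change of -0.53 ± 0.09 (adjusted p = 0.000258). The comparison of Unloading with Control gave 0.28 ± 0.10, which did not pass the threshold (adjusted p = 0.0901), and it passed in 4 of 18 alternative analyses, among them without Control 4 (adjusted p = 0.0165). The decline in Reloading was accompanied by the decline of the fibre markers given above, and their part in it was not tested.

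Gdf11 (ENSMUSG00000025352, chromosome 10, 128882295 to 128891718, minus strand), the closest relative of Mstn, was measured at 15.1, 14.2, 14.1 and 16.6 CPM in Control, 11.2 and 17.8 CPM in Unloading and 15.1, 13.0 and 13.4 CPM in Reloading. The Unloading libraries bracketed all the others, and the groups overlapped in every comparison. The log2 fold changes were -0.03 ± 0.15 for Unloading over Control (adjusted p = 0.921), -0.09 ± 0.16 for Reloading over Unloading (adjusted p = 0.693) and -0.12 ± 0.14 for Reloading over Control (adjusted p = 0.508), all by edgeR's quasi-likelihood test. The ratio of Mstn to Gdf11, both per length and within 1 library, is free of the scaling between libraries. It lay between 7.58 and 8.53 in Control, at 7.90 and 13.5 in Unloading and between 5.11 and 6.70 in Reloading. The Reloading ratios were thus below those of all 6 other libraries.

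Inhba (ENSMUSG00000041324, chromosome 13, 16011851 to 16031621, plus strand), the subunit of activin A, was counted only 96 times in all libraries together. It reached 0.286 to 0.686 CPM in Control, 0.0749 and 0.710 CPM in Unloading, the former of which is a single read pair, and 1.77, 1.74 and 0.927 CPM in Reloading. All 3 Reloading libraries were above the 6 others, and only they passed the filter. The log2 fold change of Reloading was 1.74 ± 0.54 (SE) over Unloading and 1.61 ± 0.46 over Control. The former was 1.03 without Unloading 1 and 4.12 without Unloading 2. Without Control 2 and Reloading 1, the libraries with skin transcripts, the values were 1.58 over Unloading and 1.58 over Control. From Control to Unloading it was -0.13 ± 0.63 (adjusted p = 0.925, edgeR).

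Inhbb (ENSMUSG00000037035, chromosome 1, 119415465 to 119422248, minus strand), the subunit of activin B, was measured at 0.677 to 1.41 CPM in Control, at 0.898 and 1.48 CPM in Unloading and at 2.82, 1.81 and 1.06 CPM in Reloading. The groups overlapped, since Reloading 3 lay within the range of both other groups. Its log2 fold change of 0.85 ± 0.35 for Reloading over Control did not pass the threshold (adjusted p = 0.0622, edgeR). It passed in 6 of 18 alternatives, among them a block by the replicate numbers of the sample descriptions, at 0.77 (adjusted p = 0.0443, edgeR). Those numbers were taken to pair Control and Reloading libraries only from correlations between the libraries. Over Unloading the log2 fold change of Inhbb was 0.61 ± 0.39 (adjusted p = 0.238).

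Acvr2a (ENSMUSG00000052155, chromosome 2, 48814109 to 48903269, plus strand), a receptor for activins and myostatin, was measured at 45.0, 31.1, 35.8 and 41.4 CPM in Control, 58.3 and 51.2 CPM in Unloading and 27.7, 26.8 and 28.7 CPM in Reloading. The 3 groups were fully separate, with Unloading on top and Reloading at the bottom. Acvr2a rose from Control to Unloading with a log2 fold change of 0.52 ± 0.11, a factor of 1.43 (adjusted p = 0.0113, edgeR). It fell from Unloading to Reloading by 0.98 ± 0.12 on the log2 scale, a factor of 1.97 (adjusted p = 2.52e-05). Reloading was also lower than Control, at -0.46 ± 0.11 (adjusted p = 0.00297). Without Unloading 1 the rise on unloading was 0.42 and no longer passed (adjusted p = 0.187). The exons of Acvr2a share 7.84% of their bases with Orc4 on the opposite strand, and the counting did not use strand.

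Acvr2b (ENSMUSG00000061393, chromosome 9, 119402118 to 119434995, plus strand), the receptor with the higher affinity for myostatin, followed the same order at a lower level. It was measured at 9.22 to 9.61 CPM in Control, 11.4 and 14.0 CPM in Unloading and 6.69, 6.44 and 8.01 CPM in Reloading. As with Acvr2a, no groups overlapped. The log2 fold change was 0.43 ± 0.13 for Unloading over Control (adjusted p = 0.0411, edgeR), -0.85 ± 0.13 for Reloading over Unloading (adjusted p = 0.000190) and -0.42 ± 0.12 for Reloading over Control (adjusted p = 0.0115). The first of these rests close to the threshold: it no longer passed in 9 of the 18 alternatives, with adjusted p up to 0.318 when Unloading 2 was left out. Without Control 2 and Reloading 1 the adjusted p was 0.0742 for Unloading over Control and 0.0644 for Reloading over Control. The ratio of Acvr2a to Acvr2b per length stayed within overlapping ranges, from 2.27 to 3.24 in Control, at 2.52 and 3.54 in Unloading and from 2.48 to 2.87 in Reloading.

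The scaling matters for the lower values in Reloading. With library totals in place of the TMM factors, the median log2 fold change of all genes moved from 0.03 to 0.27 for Reloading over Unloading and from 0.01 to 0.25 for Reloading over Control. On that scale Mstn, Acvr2a and Acvr2b were still called lower in Reloading than in Unloading, at -0.56, -0.73 and -0.61. Compared with Control, Mstn stayed called at -0.29 (adjusted p = 0.0111), while Acvr2a at -0.22 (adjusted p = 0.107) and Acvr2b at -0.18 (adjusted p = 0.225) did not. Inhbb was then called higher (adjusted p = 0.0174, edgeR), so that of the 6 members tested there 1 was higher and 1 lower in Reloading than in Control. The shares of all genes called were not counted on that scale, so this count is a description only.

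**Figure D3:**
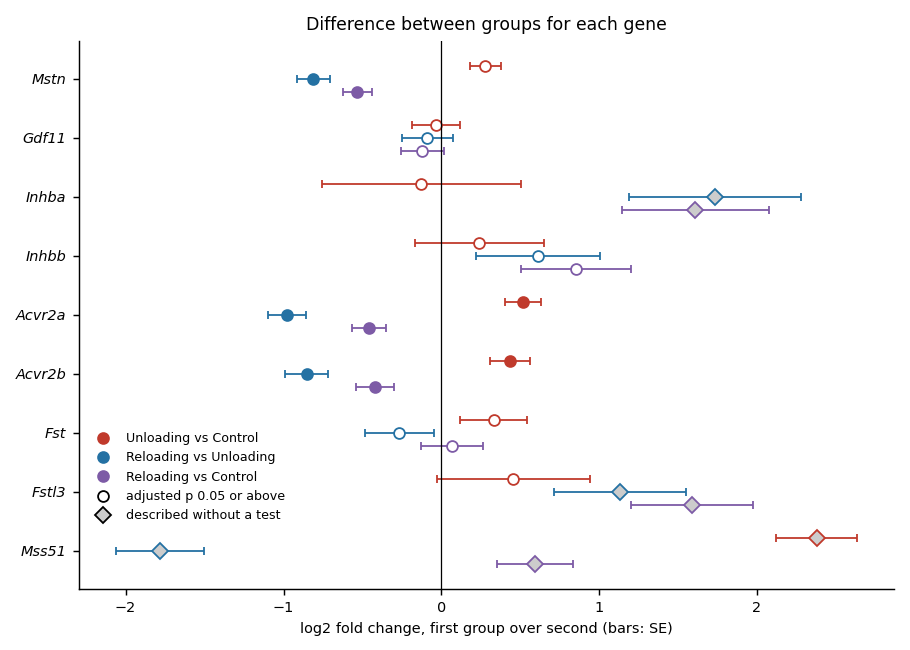
log2 fold change of each gene in the 3 comparisons (points, with SE bars), filled where the adjusted p was under 0.05 and open where it was not. Grey diamonds are values described without a test: Mss51, at 2.38, -1.78 and 0.59, and the Reloading comparisons of Inhba and Fstl3. Both Reloading comparisons of Mstn, Acvr2a and Acvr2b lie left of 0.

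Follistatin, Fst (ENSMUSG00000021765, chromosome 13, 114452290 to 114458951, minus strand), which binds activins and myostatin, was measured at 2.37 to 2.90 CPM in Control, 3.89 and 2.68 CPM in Unloading and 3.06, 2.46 and 2.58 CPM in Reloading. Only Unloading 1 stood above the range of the other libraries. The log2 fold changes of 0.33 ± 0.21 for Unloading over Control (adjusted p = 0.349), -0.27 ± 0.22 for Reloading over Unloading (adjusted p = 0.363) and 0.07 ± 0.20 for Reloading over Control (adjusted p = 0.819) did not pass edgeR's test. Follistatin had 101 to 120 read pairs per group, and the size of difference that could be detected for it at this depth was not determined.

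Fstl3 (ENSMUSG00000020325, chromosome 10, 79777272 to 79782630, plus strand), the other trap of this family, was counted 18 times in the Control, 17 times in the Unloading and 49 times in the Reloading libraries. That corresponds to 0.214 to 0.686 CPM in Control, 0.449 and 0.601 CPM in Unloading and 1.13, 1.08 and 1.32 CPM in Reloading. All Reloading libraries lay above all others, and only they passed the filter. The log2 fold change of Reloading was 1.59 ± 0.39 (SE) over Control and 1.13 ± 0.42 over Unloading, and that of Unloading over Control was 0.46 ± 0.48 (adjusted p = 0.598, edgeR). The value of Fstl3 is uncertain, since 47.3% of its exon bases are shared with Prss57 on the opposite strand, and Prss57 itself had at most 1 read pair per library.

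Mss51 (ENSMUSG00000021815, chromosome 14, 20482867 to 20496901, minus strand) was even among the Control mice and uneven in both other groups. It was measured at 98.1, 104, 88.1 and 103 CPM in Control, 628 and 392 CPM in Unloading and 73.2, 162 and 208 CPM in Reloading. Both Unloading libraries lay above all others. In Reloading, 2 libraries stood above the Control range and Reloading 1 below it. The log2 fold change was 2.38 ± 0.26 for Unloading over Control, -1.78 ± 0.28 for Reloading over Unloading and 0.59 ± 0.24 for Reloading over Control. Without Unloading 1 the first was 2.00. Without Control 2 and Reloading 1, the libraries with skin transcripts, Reloading over Control was 0.94, and without Reloading 3 it was 0.26.

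Mss51 and Mstn did not move by like amounts. Their ratio per length within a library was 1.61 to 1.98 in Control, 6.20 and 9.24 in Unloading and 2.12 to 5.17 in Reloading. In Reloading the level of Mstn was below every Control library, whereas Mss51 was above it in 2 of 3 libraries. The ratio in every Unloading and Reloading library exceeded the highest Control ratio. Since Mss51 was picked for its rise, these ratios are a description.

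**Figure D4:**
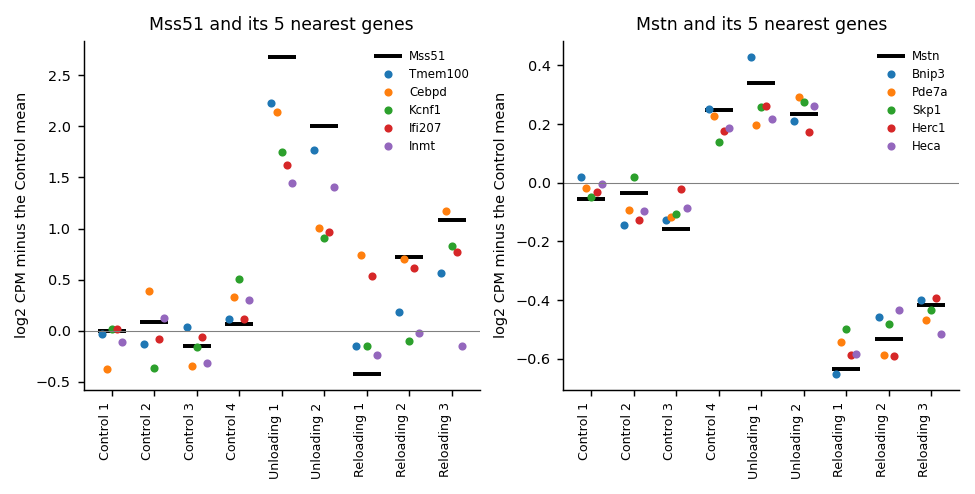
log2 CPM minus the Control mean in each of the 9 libraries for Mss51 (left) and Mstn (right), drawn as black dashes, and for the 5 genes with the nearest pattern to each, drawn as points. Points of the Mstn neighbours lie close to its dashes, while the Mss51 neighbours lie below its dashes in both Unloading libraries.

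The genes nearest in pattern to each were found among 9872 others with a mean log2 CPM of at least 2, by the root mean square difference over the 9 libraries of log2 CPM centred on the Control mean. Nearest to Mss51 was Tmem100 at 0.34, with a mean of 11.9 CPM in Control, 47.9 in Unloading and 13.9 in Reloading. Cebpd followed at 0.58, Kcnf1 at 0.61, Ifi207 at 0.61 and Inmt at 0.68. None of these 5 lay as far above its Control mean in either Unloading library as Mss51 did. Since Mss51 was picked for that rise, this is a description. The genes nearest to Mstn were much closer to it, with Bnip3 at 0.06, Pde7a, Skp1 and Herc1 at 0.07 and Heca at 0.08. Bnip3, which encodes a mitophagy receptor, had a mean of 124 CPM in Control, 155 in Unloading and 87.4 in Reloading. Among the members, Acvr2b at 0.16 and Acvr2a at 0.19 were nearest to Mstn, and Mss51 was 1.18 away.

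The rest of the pathway was followed in 45 other genes for ligands, receptors, inhibitors and binders, propeptide processing, Smad signalling and Smad2/3 targets, of which 40 passed the filter. In Unloading compared with Control 4 of the 40 were higher and 0 lower, and the median log2 fold change was 0.06 against 0.00 for all genes. In Reloading compared with Unloading 10 were higher and 9 lower, with a median of 0.06 against 0.03. In Reloading compared with Control 14 were higher and 7 lower, with a median of 0.15 against 0.01. The 10 and the 14 include Ltbp2, which passed the filter only through Reloading, so that its call is no support. With library totals the splits of both Reloading comparisons moved towards higher. The median log2 fold change of all genes moved the same way, to 0.27 and 0.25, and the shares of all genes called were not counted on that scale. With TMM the shares of all genes called are those given for the members.

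**Figure D5:**
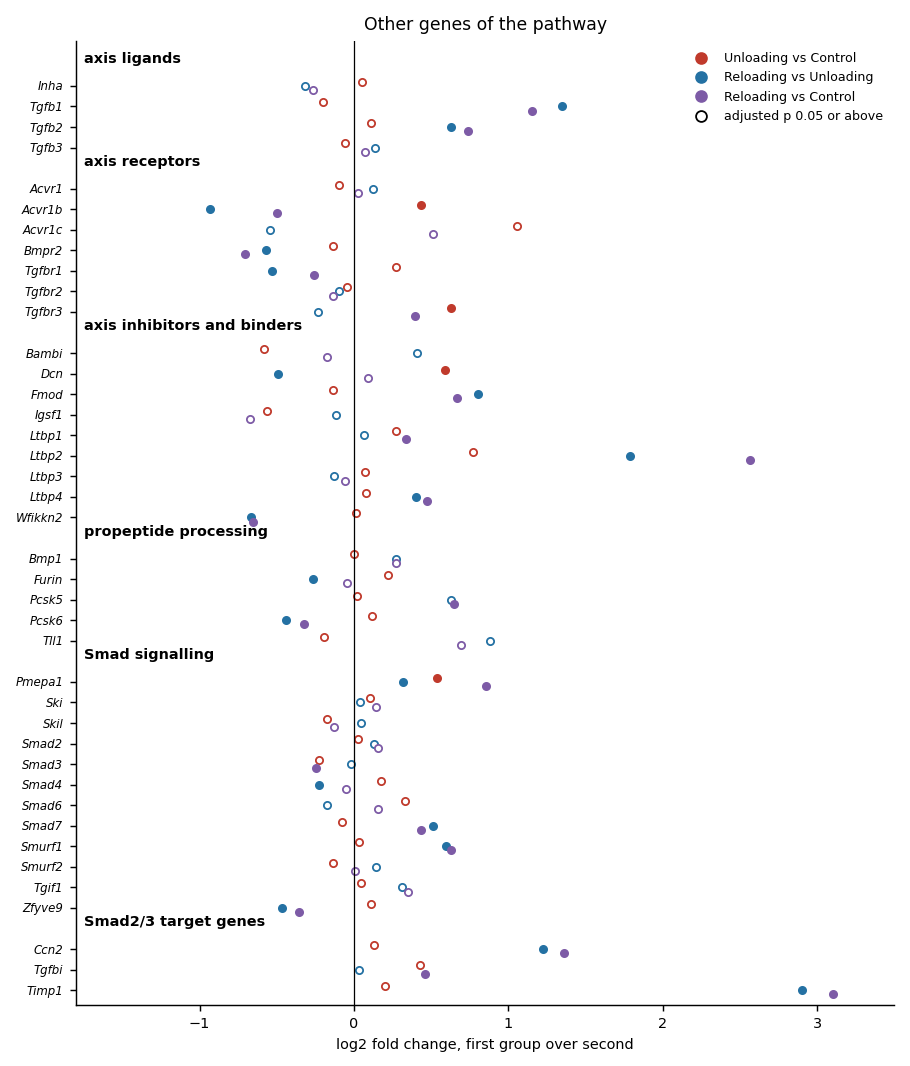
log2 fold change of 40 other genes of the pathway in the 3 comparisons, grouped by role, filled where the adjusted p was under 0.05; genes in both Smad lists are drawn under Smad signalling. Timp1 lies farthest to the right at 2.90 and 3.10 in the Reloading comparisons, and Acvr1b is the receptor farthest to the left at -0.93. The filled points of Ltbp2 in the Reloading comparisons are values described without a test.

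Among the other receptors, 2 of 7 were higher in Unloading than in Control and 3 of 7 were lower in Reloading than in Unloading. Acvr1b, the type I receptor that pairs with Acvr2a and Acvr2b, was measured at 98.9, 90.0, 83.0 and 111 CPM in Control, 139 and 120 CPM in Unloading and 66.1, 60.5 and 76.2 CPM in Reloading. Its groups did not overlap, in the order seen for its type II partners. The log2 fold changes were 0.44 on unloading (adjusted p = 0.0227, edgeR), -0.93 from Unloading to Reloading (adjusted p = 2.79e-05) and -0.50 from Control to Reloading (adjusted p = 0.00110), and the first was not called in 4 of 18 alternatives: without Unloading 1 (adjusted p = 0.294), Control 2 (0.0501) or Control 3 (0.0601), or without Control 2 and Reloading 1 together (0.0522). Tgfbr3, the co-receptor betaglycan, was higher in Unloading than in Control by 0.63 (adjusted p = 0.00239), but not without Unloading 1 (adjusted p = 0.0747). Bmpr2, a type II receptor used mainly by bone morphogenetic proteins, was lower in Reloading, with a log2 fold change of -0.57 from Unloading (adjusted p = 0.000458) and -0.70 from Control (adjusted p = 1.25e-05).

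Of the 9 other inhibitors and binders, 1 was higher in Unloading than in Control, and 3 were higher and 2 lower in Reloading than in Unloading. Dcn, the matrix proteoglycan decorin that can bind myostatin and TGF-beta, was measured at 213 to 241 CPM in Control, 362 and 321 CPM in Unloading and 229 to 257 CPM in Reloading. Its rise on unloading of 0.59 (adjusted p = 0.000545, edgeR) held in all 18 alternatives. Wfikkn2, a secreted inhibitor of myostatin and Gdf11, was at 15.2 to 17.1 CPM in Control, 17.1 and 16.3 CPM in Unloading and 9.27 to 12.6 CPM in Reloading. Its log2 fold change from Unloading to Reloading was -0.67 (adjusted p = 0.00106). Fmod, the proteoglycan fibromodulin, was higher in Reloading than in Unloading by 0.80 (adjusted p = 0.00213). Ltbp2, a matrix protein of the latent TGF-beta binding family, counted among the 3 higher, passed the filter only through Reloading and is described without a test, at a log2 fold change of 1.79. The myostatin inhibitor Wfikkn1 did not pass the filter.

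Of the 4 other ligand genes tested, 2 were higher in Reloading than in Unloading and 0 lower. Tgfb1 was measured at 2.71 to 5.06 CPM in Control, 2.40 and 3.88 CPM in Unloading and 8.87, 9.18 and 6.56 CPM in Reloading, where it was higher than in Unloading by 1.35 (adjusted p = 0.000601, edgeR). Tgfb2 was higher by 0.63 (adjusted p = 0.00208). Of 5 propeptide processing genes, 2 were lower in Reloading than in Unloading, and Pcsk5, a proprotein convertase, was higher in Reloading than in Control by 0.65 (adjusted p = 0.0426), a call that 7 of 18 alternatives did not give.

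Of the 12 Smad signalling genes, 11 were not called in Unloading compared with Control and 7 were not called in each of the Reloading comparisons. Smad2, Smad3 and Smad4 had log2 fold changes of 0.13, -0.02 and -0.22 from Unloading to Reloading, of which that of Smad4 passed (adjusted p = 0.0470, edgeR). Smurf1, a ubiquitin ligase for Smads and receptors, was higher in Reloading than in Unloading by 0.60 (adjusted p = 0.000234) and than in Control by 0.63 (adjusted p = 2.01e-05).

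Of 7 genes known as Smad2/3 targets, 1 was higher in Unloading than in Control, 4 were higher in Reloading than in Unloading and 5 in Reloading than in Control, and 0 were lower. The single gene called higher on unloading was Pmepa1, which also restrains Smad signalling. It was measured at 17.5 to 19.5 CPM in Control, 27.3 and 25.7 CPM in Unloading and 33.0, 33.1 and 33.1 CPM in Reloading, with a log2 fold change of 0.54 on unloading (adjusted p = 0.00214, edgeR) and 0.85 from Control to Reloading (adjusted p = 5.34e-07). The rise on unloading was not called in 1 of 18 alternatives, without Unloading 1, where it was 0.49. Timp1, an inhibitor of matrix metalloproteinases, was at 0.226 to 1.16 CPM in Control, 0.898 and 0.656 CPM in Unloading and 6.13, 6.08 and 5.10 CPM in Reloading, higher than in Unloading by 2.90 (adjusted p = 1.21e-05). Ccn2, the connective tissue growth factor, was higher by 1.23 (adjusted p = 1.02e-06). These genes respond to many other signals as well.

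Most markers of macrophages, endothelium, smooth muscle and Schwann cells moved with the genes that rose in Reloading. Compared with Unloading, 8 of 10 macrophage markers were higher, with a summed level of 84.3 to 102 CPM in Control, 87.1 and 88.5 CPM in Unloading and 168 to 191 CPM in Reloading. For endothelium 4 of 5 were higher, with 131 to 162, 141 and 143, and 232 to 296 CPM in the same groups. All 5 smooth muscle markers were higher, of which Cnn1 and Tagln passed the filter only through Reloading, with 112 to 137, 97.5 and 101, and 168 to 190 CPM. Of the Schwann cell and nerve markers 4 of 5 were higher, with 35.8 to 55.9, 39.1 and 51.0, and 87.8 to 118 CPM, while Sox10 passed the filter only through Reloading. Among 5 satellite cell and myoblast markers tested, Myod1 and Myog were higher, by 1.30 (adjusted p = 6.21e-05, edgeR) and 1.41 (adjusted p = 0.000250). Pax7, Myf5 and Megf10 went the other way, at -0.15, -0.33 and -0.85, and were not called. Myod1 had been lower in Unloading than in Control at -0.61 (adjusted p = 0.0391, edgeR). The list of 6 summed to 22.7 to 33.2, 20.7 and 21.1, and 38.7 to 42.0 CPM. None of the markers in these lists was at 0 in any library.

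Fibroblast and fibro-adipogenic progenitor (FAP) markers moved in both directions. From Control to Unloading 2 of 8 were higher, the progenitor marker Pdgfra by 0.63 (adjusted p = 0.00377, edgeR) and Dcn, which is also among the binders above. The collagens Col1a1 at -1.07 (adjusted p = 0.0399) and Col3a1 at -0.71 (adjusted p = 0.0261) were lower. From Unloading to Reloading these 4 turned round, with Pdgfra at -0.62 (adjusted p = 0.000795), Dcn at -0.49 (adjusted p = 0.000278), Col1a1 at 1.68 (adjusted p = 0.000992) and Col3a1 at 1.38 (adjusted p = 8.45e-05), and Ly6a was higher as well. The summed level of the list was 540 to 737 CPM in Control, 606 and 616 CPM in Unloading and 688 to 851 CPM in Reloading. Of 4 adipocyte markers 1, Cidec, was higher in Reloading than in Unloading, by 0.76 (adjusted p = 0.0351). The part of these cell types in the values of Inhba, Fstl3, Tgfb1, Timp1, Ccn2, Fmod, Ltbp2 and Dcn was not tested.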

How the data were processed

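Polyadenylated RNA of gastrocnemius muscle was sequenced in 9 libraries. The labels name STAR 2.7.3a, featureCounts 2.0.3 and build GRCm38.p6. The authors deposited a table of raw counts of read pairs per gene, counted without strand against Ensembl release 102, with each gene's exon length. The study's methods describe single reads, while the table was counted in pairs. The authors' 3 tables of DESeq2 results hold their fold changes and p-values, none of which was used. Only their gene symbols were read.

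Genes were kept by filterByExpr (minimum count 10, minimum total 15), which asked for 0.784 CPM in at least 2 libraries and left 14851 of the 34376 genes with a count above 0. Counts were scaled by TMM, with factors of 0.928 to 0.960 in Control and Unloading and 1.11 to 1.13 in Reloading, and tested in R 4.3.3 with edgeR 4.0.16 (quasi-likelihood F-test, two-sided, 1 fit over all 9 libraries, with no term but the group). Adjustment was by Benjamini and Hochberg over all tested genes of a comparison. SE is the log2 fold change divided by the square root of F, and log2 CPM used a prior count of 2. Libraries of a group differed by more than sampling noise, and nothing says that they came from separate cages or days, so p-values measure the spread between these mice only. The procedure was tested on simulated data.

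The members and the lists of pathway and marker genes were chosen with earlier results of these data known. Named are all 9 members and, per comparison, up to 10 other pathway genes of largest change in log2 among those called with no overlap between the groups, beside genes named where a list is described. Smad2, Smad3, Smad4 and Wfikkn1 were named after their values were seen. 1 gene of the written pathway lists is not reported here and entered no count of those lists. Upstream sequences came from RefSeq (GRCm38.p6).

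The sample descriptions number the Reloading libraries as 2, 3 and 4. Under these numbers the deviations from the group means of Control and Reloading libraries correlated in each of 3 pairs (r = 0.361, 0.143 and 0.155), so by the rule applied the numbers were taken to pair these groups. The highest r is that of Control 2 and Reloading 1, which both hold skin transcripts. The other groups' pairs reached at most 0.0752, and the replicate numbers in the titles, which differ, paired none. Alternatives were DESeq2 1.42.0, its size factors, library totals, no filter, a robust fit, only the 2 groups compared, a replicate block, and leaving out libraries.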

Additional observations from a re-analysis of the deposited data

How the results depend on the processing

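Each of the 24 log2 fold changes of the 8 members other than Mss51 was recomputed under 18 alternatives, which gave 432 values. Of these, 380 kept their direction and their side of the threshold, 30 fell short of it, 10 newly passed it and 12 changed sign, all 12 in comparisons that were not called. The 432 values include the Reloading comparisons of Inhba and Fstl3, which are described without a test. Calls kept, gained or lost there carry no weight. The 54 values of Mss51, which was not tested, kept their direction and moved by less than 1 SD between replicates. Mstn, Acvr2a and Acvr2b were called lower in Reloading than in Unloading under all 18, with log2 fold changes between -0.88 and -0.56, -1.07 and -0.73, and -0.99 and -0.61. Acvr2a was called higher in Unloading than in Control in 17 of 18 and Acvr2b in 9 of 18.

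Of all 8 members, Inhba and Fstl3 included, those called in Unloading over Control numbered 2, but 1 with the DESeq2 Wald test and 1 without Control 2 and Reloading 1 together, and between 0 and 2 when single libraries were left out, with 0 without Unloading 1 and 1 without each of Unloading 2, Control 1, Control 2 and Control 3. In Reloading over Unloading Inhba and Fstl3 are left out, since they were described there without a test. Of the 6 other members, the 3 called in the main fit stayed called in all 18 alternatives. Gdf11, Fst and Inhbb were called in none of them. Of the other pathway genes, 4 were called in Unloading over Control, 7 with no filter and between 1 and 4 when single libraries were left out, with 1 without Unloading 1. The cause of these shifts was not tested, beyond the smaller number of libraries. The shares of all genes called were not counted under the alternatives.

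The Reloading comparisons of Inhba and Fstl3 are left out here as well, except in the counts by title numbers. With the replicate block by description numbers, Mstn, Acvr2a and Acvr2b were called in Reloading over Unloading. The block also gave a call for Mstn in Unloading over Control, at 0.34 (adjusted p = 0.0199, edgeR) and by title numbers at 0.38 (adjusted p = 0.0370), where the numbers pair no libraries. By description numbers Mstn, Acvr2a, Acvr2b and Inhbb were called in Reloading over Control. With the block by title numbers the members called were 2, 4 and 5, counted over all 8 members, Inhba and Fstl3 included. The 4 in Reloading over Unloading and the 5 in Reloading over Control thus hold calls of Inhba or Fstl3, which carry no weight. Of the other members, Mstn, Acvr2a and Acvr2b were called in Reloading over Unloading with that block. Outside Control and Reloading the libraries share only a number.

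The changes of sign were those of Gdf11 in Unloading over Control, at 0.0079 with no filter and between -0.42 and 0.25 when single libraries were left out, in Reloading over Unloading, at 0.16 with library totals and between -0.37 and 0.30 when single libraries were left out, and in Reloading over Control, at 0.12 with library totals. Inhba in Unloading over Control was 0.0012 without Control 2 and Reloading 1 together and between -2.51 and 0.58 when single libraries were left out. Inhbb in Unloading over Control lay between -0.19 and 0.52 when single libraries were left out. Fst lay between -0.53 and 0.0083 in Reloading over Unloading and between -0.028 and 0.13 in Reloading over Control in the same way. The least abundant members, Inhba, Inhbb and Fstl3, rest on 14 to 76 read pairs per group, and Unloading holds only 2 libraries.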
